A study of Mus musculus with 6 samples.

Results

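Id proteins and the bone morphogenetic protein (BMP) pathway were described across 6 hippocampi, 3 from Ahr-KO and 3 from wild-type mice. The genes are the 4 Id genes Id1, Id2, Id3 and Id4, the ligand Bmp4, the receptors Bmpr1a, Bmpr1b and Bmpr2, and the Smads Smad1 and Smad6. They were listed for their role in the neurogenic niche and not for their values, though earlier results of these data were known. Each of the 10 was read by the probe set that the platform annotation pairs with its symbol alone, and together they are 10 of the 22180 genes tested. Ahr encodes the aryl hydrocarbon receptor, a transcription factor that binds dioxins and tryptophan metabolites. Total RNA of the dissected tissue was hybridised to whole-transcript arrays, 1 array per mouse. The labels give the genotypes as Ahr-KO and wildtype and name no allele, strain, age or treatment. Whether all cells of the Ahr-KO mice lack the gene is not stated there either.

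BMPs are secreted ligands that bring together type I receptors such as Bmpr1a and Bmpr1b and the type II receptor Bmpr2. The type I receptor kinases phosphorylate Smad1 and its relatives, which enter the nucleus with Smad4 and switch on the Id genes. Id proteins have a helix-loop-helix but no DNA-binding region, so they tie up basic helix-loop-helix (bHLH) factors in inactive pairs. In the dentate gyrus BMP signalling and Id proteins are known for holding neural stem cells in quiescence.

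All values are log2 signals, on which a difference of 1 is a doubling. The medians of the arrays lay between 5.79 and 5.85, and no 2 arrays held identical values. Ahr, the targeted gene, was lower on all 3 Ahr-KO arrays (6.62, 6.91 and 6.74) than on the wild-type arrays (7.68, 7.50 and 7.44), and its difference of -0.78 did not pass across all genes (limma adjusted p = 0.320). The labelled tissue was checked against 10 markers of hippocampal neurons, among them the synaptic protein Snap25. All 10 lay above the array median on every array, as did 12501 of the 22180 genes tested. Choroid plexus genes stood apart on Ahr-KO array 1 and wild-type array 2, where the 9 measured markers, led by Ttr, summed to 13.39 and 12.88 log2, against 9.88 to 10.08 on the other 4 arrays. Genes of other hippocampal cells also differed between arrays. The granule cell factor Prox1 was at 9.96, 9.78 and 10.02 log2 in Ahr-KO and 9.48, 9.79 and 9.65 in wild type (0.28 ± 0.10, SE; limma unadjusted p = 0.0256, adjusted p = 0.797). Wfs1, a gene of CA1 neurons, was at 9.75, 10.45 and 10.16 in Ahr-KO and 10.72, 10.17 and 10.59 in wild type (-0.37 ± 0.19, SE; unadjusted p = 0.0922). Fibcd1, also a gene of CA1 neurons, went the other way. It was at 9.40, 9.25 and 9.48 in Ahr-KO and 9.16, 9.33 and 9.14 in wild type (0.16 ± 0.09, SE; limma unadjusted p = 0.109). The 9 measured oligodendrocyte markers summed to 13.19 on Ahr-KO array 1 and to 13.50 to 13.67 on the remaining arrays. The part of these cells and regions in the results was not tested. Since whole tissue was measured, fewer cells of a type and less RNA per cell cannot be told apart.

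Means in Ahr-KO were lower for Id3, higher for Id4 and nearly equal for Id2, and none of these differences passed over all genes. The 250 bases before the starts of these genes are shown. Whether the sequences are linked to the differences was not tested. The sequences are from RefSeq in assembly GRCm38.p6. Promoters of 9 of the 10 genes were read and that of Id1 was not analysed here. Each is written 5′ to 3′ on the strand of its gene. Id2 is chr12:25096093-25096342 (minus strand), Id3 is chr4:136143572-136143821 (plus strand) and Id4 is chr13:48260866-48261115 (plus strand). Capitals mark every match, on either strand, to 4 motifs, namely GGCGCC and GTCTG, which Smads can bind, GCGTG, the core that the aryl hydrocarbon receptor binds with its partner Arnt, and CANNTG, the E-box of bHLH factors.
Id2: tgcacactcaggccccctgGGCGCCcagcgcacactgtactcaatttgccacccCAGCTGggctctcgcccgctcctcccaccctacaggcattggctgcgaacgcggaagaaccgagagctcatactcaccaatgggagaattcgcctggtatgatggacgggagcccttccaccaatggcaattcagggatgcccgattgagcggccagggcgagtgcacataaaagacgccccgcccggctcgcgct
Id3: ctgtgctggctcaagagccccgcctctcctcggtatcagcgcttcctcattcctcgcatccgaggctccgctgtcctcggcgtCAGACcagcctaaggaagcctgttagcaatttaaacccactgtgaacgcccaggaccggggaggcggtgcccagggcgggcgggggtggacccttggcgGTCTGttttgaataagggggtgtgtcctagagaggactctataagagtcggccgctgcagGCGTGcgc
Id4: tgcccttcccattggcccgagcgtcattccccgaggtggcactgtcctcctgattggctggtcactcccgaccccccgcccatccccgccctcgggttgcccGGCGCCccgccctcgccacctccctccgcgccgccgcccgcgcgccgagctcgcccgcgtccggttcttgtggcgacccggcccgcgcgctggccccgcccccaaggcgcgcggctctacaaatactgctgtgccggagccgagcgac

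No matches to different motifs overlapped in these windows. Id3 held GTCTG at 2 places, 167 to 163 and 68 to 64 bases before the gene start, and GCGTG at 1 place, 8 to 4 bases before it. Id2 and Id4 each held GGCGCC once, 231 to 226 and 148 to 143 bases before the start, and Id2 an E-box besides. Of the 9 genes searched, GGCGCC was found before 4 (Id2, Id4, Bmpr1a and Bmpr2), GTCTG before 2 (Id3 and Bmpr1b), GCGTG before 3 (Id3, Smad1 and Smad6) and the E-box before 3 (Id2, Bmp4 and Bmpr1b). Among all 32851 promoter entries of the table these motifs were found in 9.59%, 42.2%, 28.2% and 66.2%. The GC content was 62.8% before Id2 and Id3 and 75.6% before Id4, beside a median of 52.4% over all entries. Bmpr1b has several entries, and a match in any of them was counted.

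Id3, which binds E proteins and is found in stem cells, astrocytes and vessels, was the one listed gene with an unadjusted p under 0.05. Its signal was 6.92, 7.00 and 6.81 log2 on Ahr-KO arrays 1 to 3 and 7.41, 7.15 and 7.13 on wild-type arrays 1 to 3. All Ahr-KO values lay below all wild-type values, with wild-type array 1 the highest, and the gap between the genotypes was 0.12. The Ahr-KO mean was 6.91 ± 0.10 and the wild-type mean 7.23 ± 0.16 (SD, n = 3 each). The difference of -0.32 ± 0.10 (SE; 95% interval -0.55 to -0.09) corresponds to 1.25-fold lower signal in Ahr-KO. It did not pass over all genes (limma unadjusted p = 0.0117, adjusted p = 0.770), and its p ranked 325 among the 22180 genes. Without wild-type array 1 the difference was -0.23 (unadjusted p = 0.0370).

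Id4, which in the adult hippocampus is linked to stem cell quiescence, had the largest difference upward among the listed genes. It read 9.08, 9.05 and 9.12 log2 on the Ahr-KO arrays and 8.79, 8.99 and 8.93 on the wild-type arrays. The Ahr-KO values were close together and all above the wild-type values, by 0.06 at the nearest. The difference was 0.18 ± 0.08 (SE; 95% interval -0.0011 to 0.36), or 1.13-fold, with limma unadjusted p = 0.0511 and adjusted p = 0.806. Without wild-type array 1, the lowest, it was 0.12, and without wild-type array 2 it was 0.22 (unadjusted p = 0.0386).

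Id1 and Id2, the other 2 Id genes, had overlapping values. Id1, a direct BMP target that is high in vessels and in stem cells, read 6.64, 6.52 and 6.76 log2 in Ahr-KO and 6.72, 6.52 and 6.69 in wild type. Mouse 2 had the lowest value in both genotypes, and the difference was -0.0054 ± 0.093 (SE). Id2, which granule neurons and their precursors also express, read 10.42, 10.45 and 10.31 in Ahr-KO and 10.34, 10.29 and 10.56 in wild type, a difference of -0.0016 ± 0.092 (SE). The 95% intervals ran from -0.22 to 0.21 for Id1 and from -0.21 to 0.21 for Id2, so that changes of -14.0% to 15.4% and of -13.7% to 15.6% lie inside them.

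Set against Id3 on the same array, the other Id genes showed how unequal the differences were. Id4 minus Id3 was 2.05 to 2.31 log2 on the Ahr-KO arrays and 1.39 to 1.83 on the wild-type arrays, without overlap. Id2 minus Id3 was 3.45 to 3.50 in Ahr-KO and 2.93 to 3.43 in wild type, also without overlap. Id1 minus Id3 was -0.48 to -0.05 in Ahr-KO and -0.69 to -0.43 in wild type and overlapped. Id3 enters every contrast. By itself Id2 overlapped between genotypes and differed by -0.0016, so the separation of Id2 minus Id3 restates that of Id3. How often other pairs of genes separate was not counted. These contrasts were formed after the values of Id3 and Id4 had been seen and are given without a test.

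**Figure D1:**
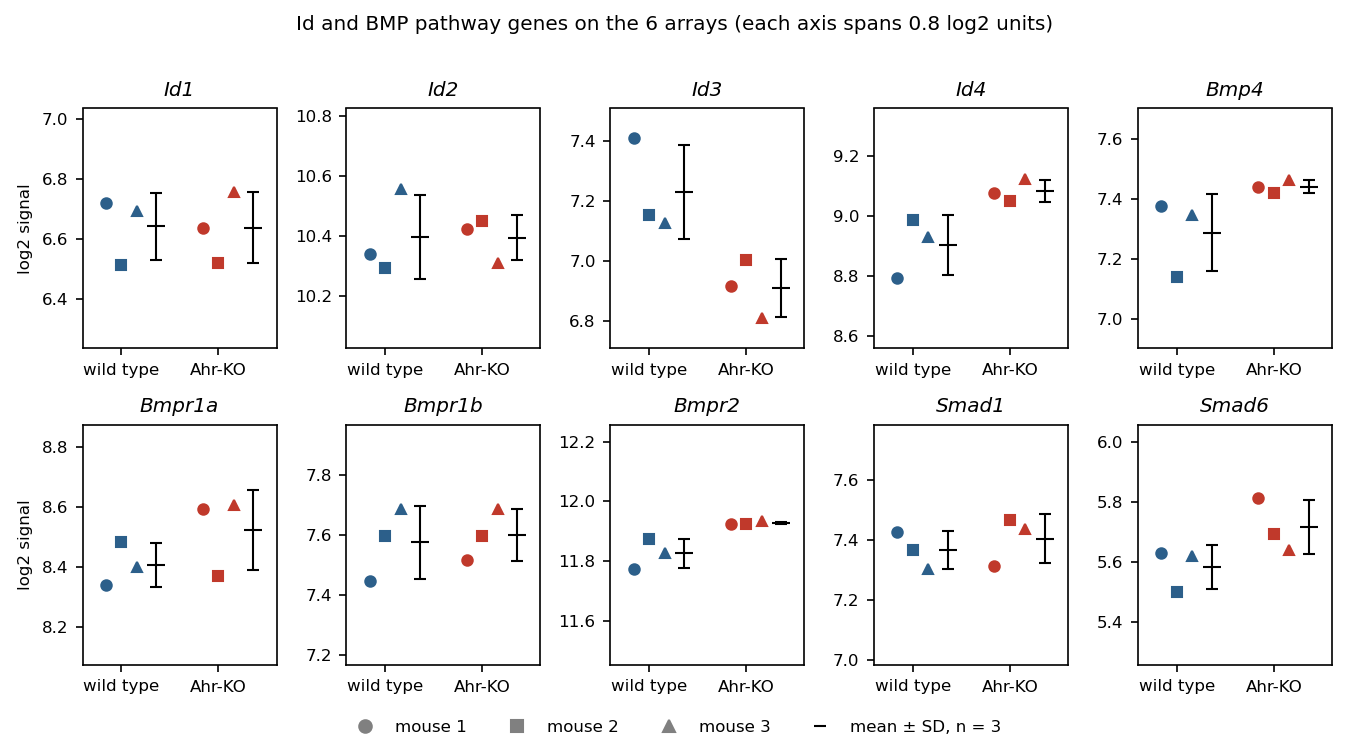
Log2 signal (y axis) of the 10 genes on each array, by genotype (x axis), with symbols for mouse 1 to 3 and bars for mean ± SD (n = 3). The labels do not say whether numbers pair mice across genotypes. Each panel spans 0.8 log2 units, so heights can be compared between panels but levels cannot, and the largest separation is that of Id3, at 6.81 to 7.00 in Ahr-KO and 7.13 to 7.41 in wild type.

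Bmp4, a ligand made in the hippocampus that favours stem cell quiescence, was slightly higher in Ahr-KO. Its signal was 7.44, 7.42 and 7.46 log2 on the Ahr-KO arrays and 7.37, 7.14 and 7.35 on the wild-type arrays. The groups did not overlap, by a margin of 0.05, and wild-type array 2 was the lowest. The difference was 0.15 ± 0.08 (SE; 95% interval -0.04 to 0.35; limma unadjusted p = 0.103, adjusted p = 0.820). It was 0.08 without wild-type array 2, and 0.08 without the 2 arrays rich in choroid plexus genes, of which wild-type array 2 is one.

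All 3 receptors averaged slightly higher in Ahr-KO, and none had an unadjusted p under 0.05. Bmpr1a, the type I receptor of stem cells, read 8.59, 8.37 and 8.61 log2 in Ahr-KO and 8.34, 8.48 and 8.40 in wild type, overlapping because Ahr-KO array 2 was low. Its difference was 0.12 ± 0.09 (SE; limma unadjusted p = 0.227, adjusted p = 0.864), and it was 0.19 without Ahr-KO array 2 and 0.07 without Ahr-KO array 3. Bmpr1b, the other type I receptor, read 7.51, 7.60 and 7.69 in Ahr-KO and 7.44, 7.60 and 7.69 in wild type. The 2 sets of values nearly coincide, and the difference was 0.024 ± 0.089 (SE; 95% interval -0.18 to 0.23).

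Bmpr2, the type II receptor, had the smallest spread of the listed genes. It read 11.93 on each of the Ahr-KO arrays (SD 0.0048) and 11.78, 11.87 and 11.83 on the wild-type arrays (SD 0.049). The pooled SD ranked at percentile 2.73 among all genes tested. The groups did not overlap, and the difference was 0.10 ± 0.07 (SE; 95% interval -0.06 to 0.26), or 1.07-fold, with limma unadjusted p = 0.179 and adjusted p = 0.842. Limma's SE draws on the spread of all genes and so exceeds the one the 6 values alone would give. With a variance prior that follows the signal the unadjusted p was 0.0415. A further probe set that the annotation pairs with Bmpr2 and Gm20272 together was not used for either gene. It went the other way, at 9.54, 9.60 and 9.45 log2 in Ahr-KO and 9.76, 9.74 and 9.72 in wild type, a difference of -0.21, and was looked at after the values of Bmpr2 were known.

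Of the Smads, Smad1, which carries the BMP signal into the nucleus, overlapped and Smad6, an inhibitor of the same pathway that BMP induces, was barely separated. Smad1 read 7.31, 7.47 and 7.44 log2 in Ahr-KO and 7.43, 7.37 and 7.30 in wild type, with a difference of 0.039 ± 0.078 (SE; 95% interval -0.14 to 0.22). Smad6 read 5.81, 5.69 and 5.64 in Ahr-KO and 5.63, 5.50 and 5.62 in wild type. The nearest values of the genotypes were 0.01 apart. Its difference was 0.13 ± 0.08 (SE; 95% interval -0.05 to 0.32; limma unadjusted p = 0.138, adjusted p = 0.833), and it was 0.04 without the 2 arrays rich in choroid plexus genes. Smad6 was the one listed gene below the array median on all 6 arrays. The other 9 lay above it on all 6, as did 12501 of the 22180 genes tested.

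Of the 10 genes, 0 passed at adjusted p under 0.05, as did 0% of all genes tested. At unadjusted p under 0.05 there were 0 higher and 1 lower in Ahr-KO, beside 3.53% and 2.65% of all genes, and 6.18% in either direction. Values of the genotypes did not overlap for 5 of the 10, Id4, Bmp4, Bmpr2 and Smad6 above and Id3 below, beside 11.9% of all genes, 6.18% above and 5.75% below. The margins of 4 of these 5 were 0.01 to 0.06 log2. The 6 genes of ligand, receptors and Smads all averaged higher in Ahr-KO, as did 11252 of all 22180 genes. Their median difference was 0.11, and the median over the 10 was 0.07, beside 0.0019 over all genes. The differences of the 10 ran from -0.32 to 0.18. The widest bounds of their 95% intervals were -31.5%, for Id3, and 28.3%, for Id4.

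**Figure D2:**
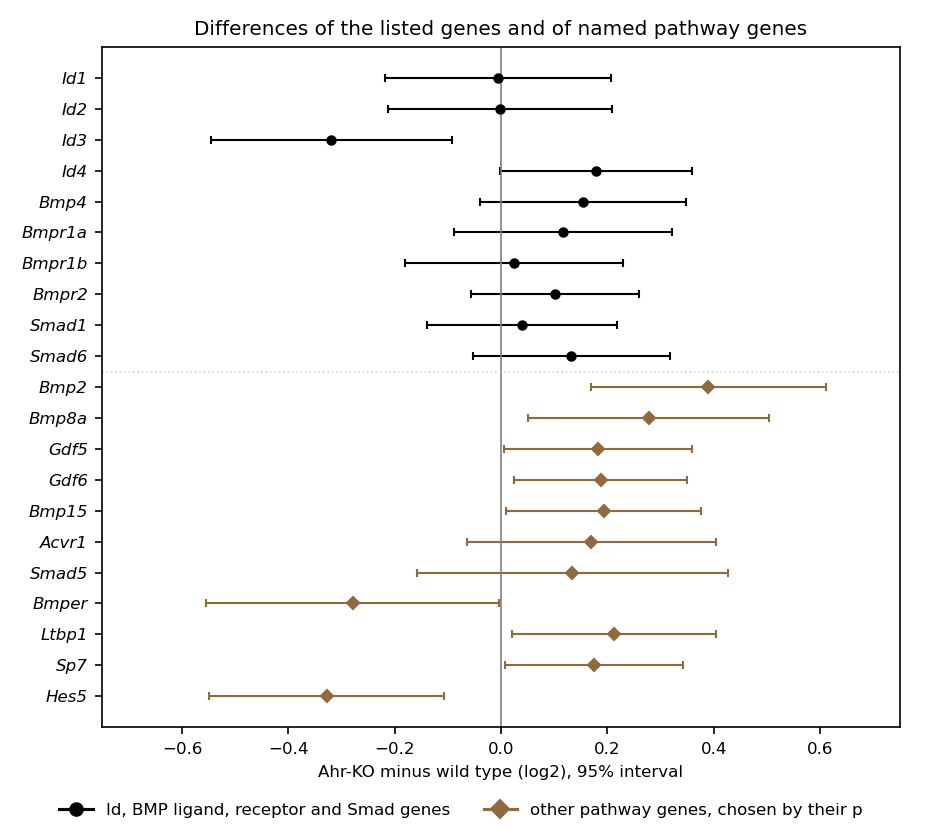
Difference between the genotype means (x axis, Ahr-KO minus wild type, log2) with limma's 95% interval for the 10 listed genes (circles) and for other genes of the pathway that were named for their p (diamonds), 1 gene per row. Among the circles the interval of Id3 (-0.55 to -0.09) alone lies off 0, and the intervals of the other 9 contain it. The diamonds were chosen by their p, so their distance from 0 is no separate evidence.

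The arrays did not contribute evenly. Ahr-KO array 3 held the highest value of 6 of the 10 genes, and wild-type arrays 1 and 2 held the lowest value of 4 each. Bmpr1a, Bmpr1b, Bmpr2 and Id4 were lowest on wild-type array 1, and Id1, Id2, Bmp4 and Smad6 on wild-type array 2. With each array left out in turn, Id3 stayed between -0.37 and -0.23 with an unadjusted p of 0.0119 to 0.0465, below 0.05 in 6 of 6 fits. Id4 stayed between 0.12 and 0.22 and was below 0.05 in 1 of 6. Bmpr2 ran from 0.08 to 0.13, Bmp4 from 0.08 to 0.20 and Smad6 from 0.08 to 0.17, each below 0.05 in 0 of 6. Id1, Id2 and Bmpr1b crossed 0.

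**Figure D3:**
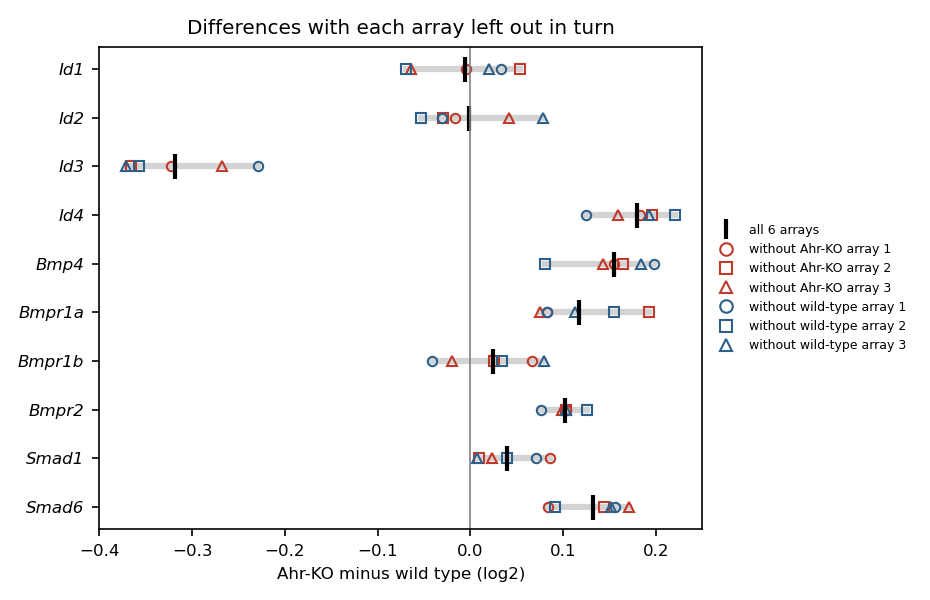
Difference between the genotype means (x axis, Ahr-KO minus wild type, log2) of the 10 genes with all 6 arrays (black bar) and with each array left out (open symbols, red for an Ahr-KO and blue for a wild-type array). The range of Id3 (-0.37 to -0.23) does not meet that of any other gene, and the ranges of Id1, Id2 and Bmpr1b include 0.

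The rest of the pathway was described from 6 lists holding 72 genes, of which 64 were measured. With an unadjusted p under 0.05, 7 averaged higher and 2 lower in Ahr-KO, beside 3.53% and 2.65% of all genes. Of the 64, 0 passed over all genes (limma adjusted p = 0.769 to 1.00). The count of 9 was 5 with mouse number as a replicate block and 4 without wild-type array 3. The median difference of the 64 genes was 0.06 log2.

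The ligand list held 14 further genes, among them the protease gene Bmp1. At unadjusted p under 0.05, 5 had higher and 0 had lower means in Ahr-KO. Bmp2, a close relative of Bmp4, read 6.17, 6.44 and 6.15 log2 in Ahr-KO and 5.89, 5.78 and 5.91 in wild type. Its genotypes did not overlap and differed by 0.39 ± 0.10 (SE; limma unadjusted p = 0.00349, adjusted p = 0.769), or 1.31-fold, and by 0.30 without Ahr-KO array 2, the highest. The others were Bmp8a (0.28 ± 0.10, SE), Gdf6 (0.19 ± 0.07), Bmp15, an oocyte factor (0.19 ± 0.08), and Gdf5, known from joints (0.18 ± 0.08). Bmp8a was at 0.17 (unadjusted p = 0.0693) without wild-type array 2 and at 0.20 (unadjusted p = 0.0816) without the 2 arrays rich in choroid plexus genes. Without these 2 arrays Gdf6 was at 0.20 (unadjusted p = 0.0822), Gdf5 at 0.14 (unadjusted p = 0.217) and Bmp15 at 0.27 (unadjusted p = 0.0330). Bmp15 was at 0.14 (unadjusted p = 0.124) without wild-type array 1. With a variance prior that follows the signal, limma's unadjusted p was 0.0703 for Gdf6, 0.0787 for Bmp15 and 0.0792 for Gdf5. Bmp2 and Bmp8a stayed under 0.05 there. Gdf5 has several probe sets, whose mean differed by 0.072 (unadjusted p = 0.349), and its p was under 0.05 in 5 of 14 alternatives. All 5 lay below the median level of the genes tested (6.50 log2), as did 10 of the 14 genes in the list. Of all genes below that level 4.90% averaged higher and 2.64% lower with an unadjusted p under 0.05, beside 2.17% and 2.65% of those at or above it. Bmp6 and Bmp7, ligands of the choroid plexus and meninges, differed by -0.07 ± 0.14 and -0.018 ± 0.098 (SE).

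Of the 8 measured receptors and co-receptors and of the 3 further Smads, 0 had an unadjusted p under 0.05. The lowest p values belonged to Acvr1, a type I receptor, at 0.17 ± 0.10 (SE; limma adjusted p = 0.832), and Smad5, a relative of Smad1, at 0.13 ± 0.13 (adjusted p = 0.888). Without wild-type array 1 they were at 0.09 and 0.02, and without wild-type array 2 at 0.27 (unadjusted p = 0.0176) and 0.25 (unadjusted p = 0.0702). Acvr1 was at 0.26 (unadjusted p = 0.0426) without the 2 arrays rich in choroid plexus genes.

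Of 18 genes listed as antagonists and intracellular inhibitors, 1 averaged higher and 1 lower with an unadjusted p under 0.05. This is near the shares of all genes. Ltbp1, which holds latent TGF-beta in the matrix and is not a BMP antagonist itself, stood at 0.21 ± 0.08 (SE; limma unadjusted p = 0.0336, adjusted p = 0.797). With each array left out in turn Ltbp1 ran from 0.16 to 0.26, with an unadjusted p under 0.05 in 3 of 6 fits. Bmper, a secreted BMP modulator of endothelium, read 6.73, 6.74 and 6.68 log2 in Ahr-KO and 7.25, 6.75 and 6.99 in wild type, a difference of -0.28 ± 0.12 (SE; unadjusted p = 0.0476, adjusted p = 0.806), and of -0.15 without wild-type array 1. Noggin (Nog), which binds BMP4 and is known for keeping neurogenesis going, differed by 0.07 ± 0.10 (SE). Smad7, the other inhibitory Smad, differed by -0.14 ± 0.17 (SE). Sostdc1, an antagonist of choroid plexus, was highest where choroid plexus genes were, with 7.96 log2 on Ahr-KO array 1, 7.42 on wild-type array 2 and no other value above 6.90.

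Of 10 measured transcription factor genes that BMPs are known to induce in various tissues, 9 averaged higher in Ahr-KO, beside 11252 of all 22180 genes. Among the 9 only the bone factor Sp7 had an unadjusted p under 0.05 (0.17 ± 0.07, SE; limma adjusted p = 0.806). With each array left out in turn Sp7 ran from 0.15 to 0.21, with an unadjusted p under 0.05 in 2 of 6 fits. Sp7 and others, 5 of the 10, lay below the median level of the genes tested. Of all genes below that level 4.90% averaged higher and 2.64% lower at that p. The list's median difference was 0.11. Among 11 bHLH genes 0 averaged higher and 1 lower with an unadjusted p under 0.05. Hes5, a bHLH repressor induced by Notch, read 7.12, 7.14 and 6.84 log2 in Ahr-KO and 7.40, 7.39 and 7.29 in wild type, without overlap (-0.33 ± 0.10, SE; limma unadjusted p = 0.00882, adjusted p = 0.770). Hes5 has several probe sets, whose mean differed by -0.23 (limma unadjusted p = 0.0246). Without Ahr-KO array 3, the lowest, the difference was also -0.23 (unadjusted p = 0.0308). The E proteins that Id proteins bind, Tcf4, Tcf3 and Tcf12, differed by 0.00041, 0.04 and 0.11 in that order, each overlapping between genotypes.

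**Figure D4:**
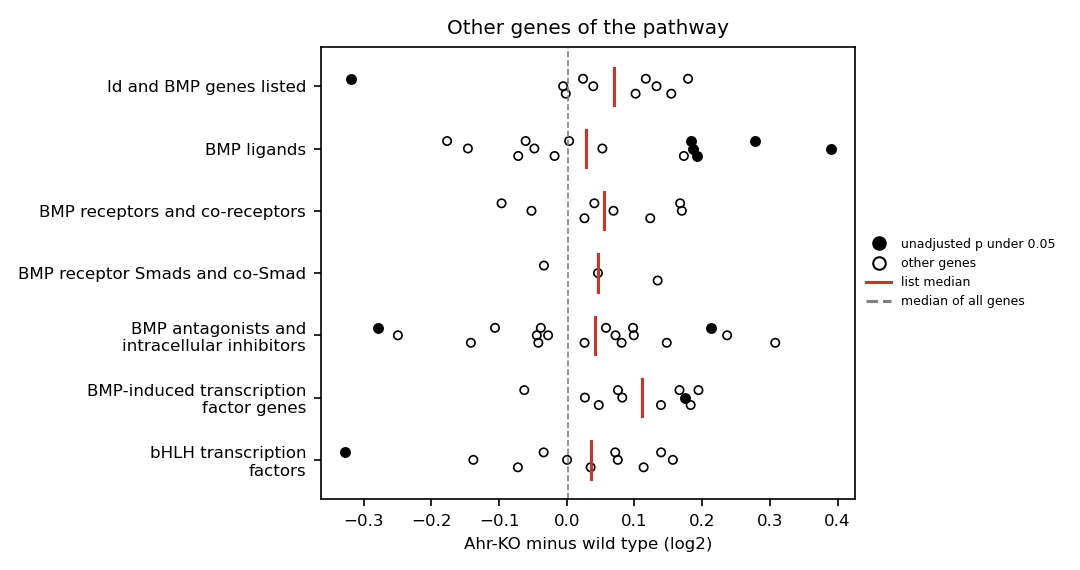
Difference between the genotype means (x axis, Ahr-KO minus wild type, log2) of every measured gene in the list of 10 and in the 6 pathway lists (rows), with filled points for an unadjusted p under 0.05, red bars for list medians and a dashed line for the median of all genes. The 5 filled points of the ligand row lie at 0.18 to 0.39, and Id3 and Hes5 lie at -0.32 and -0.33.

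Because Id1, Id3 and Smad6 are also genes of vessels and astrocytes, markers of these cells are set beside them. Of 14 endothelial markers, of which Slco1a4 was brightest, 3 averaged higher and 0 lower with an unadjusted p under 0.05, and their summed signal was 11.54 to 11.65 log2 on the Ahr-KO and 11.43 to 11.55 on the wild-type arrays. The lower limit of detection is not known for these arrays, and 12 of the 14 lay above the array median on all 6. Of 8 mural cell markers, with Rgs5 brightest, 1 was higher and 0 lower, with sums of 11.59 to 11.77 and 11.58 to 11.69. Of 10 astrocyte markers, with Aldoc brightest, 1 was higher and 1 lower, with sums of 13.71 to 13.76 in Ahr-KO and 13.72 to 13.74 in wild type. Of 10 markers of meningeal and perivascular fibroblasts, with Dcn brightest, 1 was higher and 0 lower, with sums of 10.87 to 11.52 and 10.98 to 11.24. Over all genes 3.53% averaged higher and 2.65% lower at that p. The part of these cells in the values of Id3 and Smad6 was not tested.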

How the data were processed

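The 6 arrays cover hippocampi of 3 mice per genotype. The authors deposited log2 signals per probe set, made with RMA and Affymetrix Expression Console according to the submitters' processing notes, which give no version. RMA tends to compress fold changes. The probe sets' genome build is not given in the sources used here. Of 41345 rows, 23521 had 1 gene symbol, updated through Entrez IDs to RefSeq (23328 matched). The brightest probe set per gene was used, giving 22180 genes, with no filter on dim ones.

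The test was limma 3.58.1 under R 4.3.3 (lmFit, eBayes without trend, two-sided, Benjamini-Hochberg over all genes, threshold 0.05), with 4 residual and 4.33 prior degrees of freedom. The fit was run on simulated data with independent normal values. All differences added there were larger than those of the listed genes, so smaller ones were not examined. Between 3 and 3 arrays the p-values set the genotype difference against the spread among these mice, moderated by the spread of all genes. Genes and lists were chosen with earlier results of these data known. Beyond the 10, the rule names per pathway list the genes at unadjusted p under 0.05 or else the one with the lowest p, and of marker lists the brightest. Bmp1, Bmp6, Bmp7, Fibcd1, Nog, Prox1, Smad7, Sostdc1, Tcf3, Tcf4, Tcf12 and Wfs1 were named outside it, after their values were seen. Alternatives covered the variance model, array weights, normalization, dim genes, probe set averaging, a replicate block and left-out arrays. Figures used matplotlib 3.10.9.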

Additional observations from a re-analysis of the deposited data

How the results depend on the processing

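Over 15 alternatives, 7 of the 10 genes kept their sign, and of 149 combinations of gene and alternative the 9 that turned belong to Id1, Id2 and Bmpr1b. Smad6 has no value among genes at or above the median level. Id1 turned to 0.035 with array weights and ran from -0.070 to 0.053 with 1 array left out. Id2 turned to 0.0022 with quantile normalization and ran from -0.053 to 0.079, and Bmpr1b from -0.041 to 0.079. The unadjusted p of Id3 was 0.0076 to 0.0465 over the 15, all under 0.05, and its adjusted p 0.566 to 0.973. For Id4 the unadjusted p was 0.0276 to 0.154, under 0.05 in 5. The 1 listed gene at unadjusted p under 0.05 became 3 with an intensity trend, 2 with array weights, 2 with quantile normalization, 2 among genes at or above the median level, and 1 to 2 with an array left out. The 9 pathway genes became 6 with an intensity trend, 10 with array weights and 6 with quantile normalization. They became 4 among genes at or above the median level, where fewer genes were tested. With the replicate block they were 5, and with an array left out 4 to 9. Of all genes 1371 had an unadjusted p under 0.05, and 785 among those at or above the median level. With an intensity trend 2 genes passed at adjusted p under 0.05, neither of them listed here, against 0 in the fit reported. Apart from fewer genes or arrays, the cause was not tested. Same-numbered arrays deviated from their genotype means together at r = -0.15, -0.22 and 0.05. Taken within groups of 3, these values cannot show whether the numbers pair mice, and the labels do not say. With the block the listed genes at unadjusted p under 0.05 stayed at 1, and all genes at that p went from 1371 to 1122. With 3 mice per genotype, the number of arrays limits what can be seen.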

Other observations

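Bmp3, a BMP that signals weakly and can act as an antagonist, varied widely between mice and was named after its values were seen. It read 7.38, 8.14 and 7.38 log2 on the Ahr-KO arrays and 8.16, 7.26 and 8.01 on the wild-type arrays. Ahr-KO array 2 and wild-type arrays 1 and 3 were high, and the other 3 low. The values span 0.89 log2, and the pooled SD within genotypes ranked at percentile 99.6 among all genes. The genotypes overlapped, with a difference of -0.18 ± 0.27 (SE). Sostdc1 alone of the measured pathway genes ranked higher, at percentile 99.9, with its high values on the 2 arrays where choroid plexus genes were high. Bmp3 was low on these 2 arrays and on Ahr-KO array 3, where the summed choroid plexus markers were at their lowest (9.88).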
